A study of Mus musculus with 4 samples.

Results

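A set of 42 genes of glycolysis and of the response to low oxygen was followed in mouse satellite cells with and without HDAC4. The genes were taken by symbol, and each of the 42 was found among the 43437 gene entries of the expression tables. They comprised 3 glucose transporters, 17 glycolytic enzymes, 2 PFKFB regulators, 4 enzymes and carriers of lactate, 3 pyruvate dehydrogenase kinases, 4 HIF subunits and oxygen sensors, and 9 hypoxia-induced genes. Satellite cells are the resident stem cells of skeletal muscle, and HDAC4 is a class IIa histone deacetylase. All mice were C57BL/6 HDAC4fl/fl and carried Cre-ERT2 inserted in 1 allele of Pax7, so that controls and HDAC4 KO alike had a single working Pax7 allele. The KO mice received tamoxifen (TMX) and the control mice vehicle, so that an effect of TMX itself and the loss of HDAC4 cannot be told apart in these libraries. Cells of 4-week-old mice were sorted as CD45-, Ter119-, CD31-, Sca1- and integrin alpha 7+ and kept for 24 hours in growth medium before polyA RNA was sequenced. There were 2 control libraries (numbered 3 and 4) and 2 HDAC4 KO libraries (also 3 and 4). The p-values below rest only on the spread between these 4 libraries, in part shared over genes of like level.

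Glycolysis splits glucose into pyruvate, which is either turned into lactate or burned in mitochondria. Under low oxygen the prolyl hydroxylases that mark HIF-1alpha for destruction slow down. The stabilised factor binds short cores such as ACGTG near its targets, among them many glycolytic enzymes as well as secreted and mitochondrial proteins. Satellite cells that leave quiescence are known to increase glycolysis. HIF is largely set at the protein level, which these data do not measure.

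Hdac4 itself was at 92.6% and 107% of the control mean in the control libraries and at 29.0% and 43.3% in the KO libraries, over the whole gene and not by exon, a log2 difference of -1.13 (SE 0.20; limma adjusted p = 0.19, and 0.048 with protein-coding genes alone; range over its 13 alternatives 0.048 to 0.738). Levels are in FPKM (fragments per kilobase of transcript and per unit of library size, as deposited). The satellite cell gene Pax7 had 18.4 and 21.4 FPKM in the controls against 17.1 in both KO libraries. The myogenic factor Myod1 had 633 and 833 against 562.6 and 530.0. Of the 7 satellite cell markers found, 3 (Pax7, Myf5 and Myod1) were lower in both KO libraries and 2 (Sdc4 and Des) were higher. Over all genes tested, 17.7% were lower in both KO libraries and 30.9% were higher. The 7 blood cell markers with a fixed level summed to 32.9 FPKM in control 3, of which the haemoglobin gene Hbb-bs gave 21.01, and to 4.58, 4.39 and 5.91 in control 4, KO 3 and KO 4. Ptprc did not exceed 0.0275 FPKM. Of the 8 blood cell markers found, 2 (Cd68 and Lyz2) were higher in both KO libraries than in both controls. Another 1, Cd3e, was lower in both and did not exceed 0.195 FPKM. The 7 endothelial markers with a fixed level summed to 14.8 and 6.85 FPKM in the controls against 11.6 and 12.4 in the KO, and 2 of the 8, Cdh5 and Tek, were higher in both KO libraries. Of the 8 markers of fibro-adipogenic progenitors, 3 (Dcn, Pdgfra and Smoc2) were higher in both KO libraries and 0 were lower. The 4 with a fixed level summed to 13.6 and 4.70 FPKM in the controls against 13.4 and 13.2 in the KO. Col1a1 was highest in control 3. Control 3 stood apart from the other libraries in most markers of mature fibres. The 13 myofibre markers with a fixed level summed to 1848 FPKM there against 184 in control 4, 152 in KO 3 and 273 in KO 4. Most of the sum in control 3 came from Mylpf (1394 FPKM). Actn3 was instead lowest in control 3, at 25.9 FPKM against 28.5 in control 4, 33.9 in KO 3 and 38.4 in KO 4. Ryr1 was highest in KO 4, at 159% of control 4 against 112% in control 3. All 6 glial markers, and 4 of the 7 markers of smooth muscle and pericytes (Acta2, Tagln, Cspg4 and Pdgfrb), were higher in both KO libraries than in both controls. The groups overlapped for Myh11, Cnn1 and Rgs5, and Rgs5 was highest in control 3. The 5 glial markers with a fixed level summed to 6.48 and 3.89 FPKM in the controls and to 14.9 and 12.1 in the KO. The 6 smooth muscle and pericyte markers with a fixed level summed to 49.7 and 34.6 FPKM in the controls and to 95.8 and 116 in the KO, most of it from Acta2 and Tagln. Of the myofibre markers, Myh4 was listed at 0 in control 4 and KO 3. In bulk RNA more cells of a type and more RNA per cell cannot be told apart.

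Many deposited FPKM values had lost their decimal point and were restored. For 28 of the 42 genes the level could be fixed and is given in FPKM. For 3 of these, Hk1, Pfkm and Egln1, it was fixed only by a lower limit that counting error sets on a level. For the remaining 14 of the 42 only the ratio between libraries was settled, and their values are given as a percent of the mean of the 2 controls. Differences are HDAC4 KO minus control on the log2(FPKM + 1) scale, tested with limma over the 12133 genes whose mean reached 1 FPKM, with Benjamini-Hochberg adjustment. On this scale a fold change of a low gene is understated, and for the 14 genes it also depends on the level assumed.

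Transcripts of several glycolytic enzymes were among the most abundant in these cells, while several isoforms were close to absent. Pkm, the pyruvate kinase of the last step, was the highest of the 28 at 2193 and 2476 FPKM in the controls against 2602 and 2373 in the KO, and ranked 25 among the 11536 protein-coding genes with a fixed level. Eno1 (enolase) lay between 1895 and 2122, Gapdh between 1721 and 1884 and Aldoa (aldolase) between 991 and 1162 FPKM. These 4 ranges did not overlap, although those of Eno1 and Gapdh nearly met. Eno3, the muscle enolase, followed at 516 to 629 FPKM and Gpi1 (glucose phosphate isomerase) at 323 to 378. The 14 enzymes with a fixed level summed to 8214 and 9208 FPKM in the controls and to 9044 and 8535 in the KO. Thus the KO libraries lay between the 2 controls. The 5 enzymes Pkm, Eno1, Gapdh, Aldoa and Eno3 made up 89.4% to 89.9% of that sum in each library. At the other end, the brain-enriched isoforms Aldoc and Eno2 stayed between 0.433 and 1.57 FPKM, and the carbonic anhydrase gene Car9 did not exceed 0.299 FPKM. Aldoc had 0.461 and 0.451 FPKM in the controls against 0.5125 and 1.57 in the KO, without overlap.

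**Figure D1:**
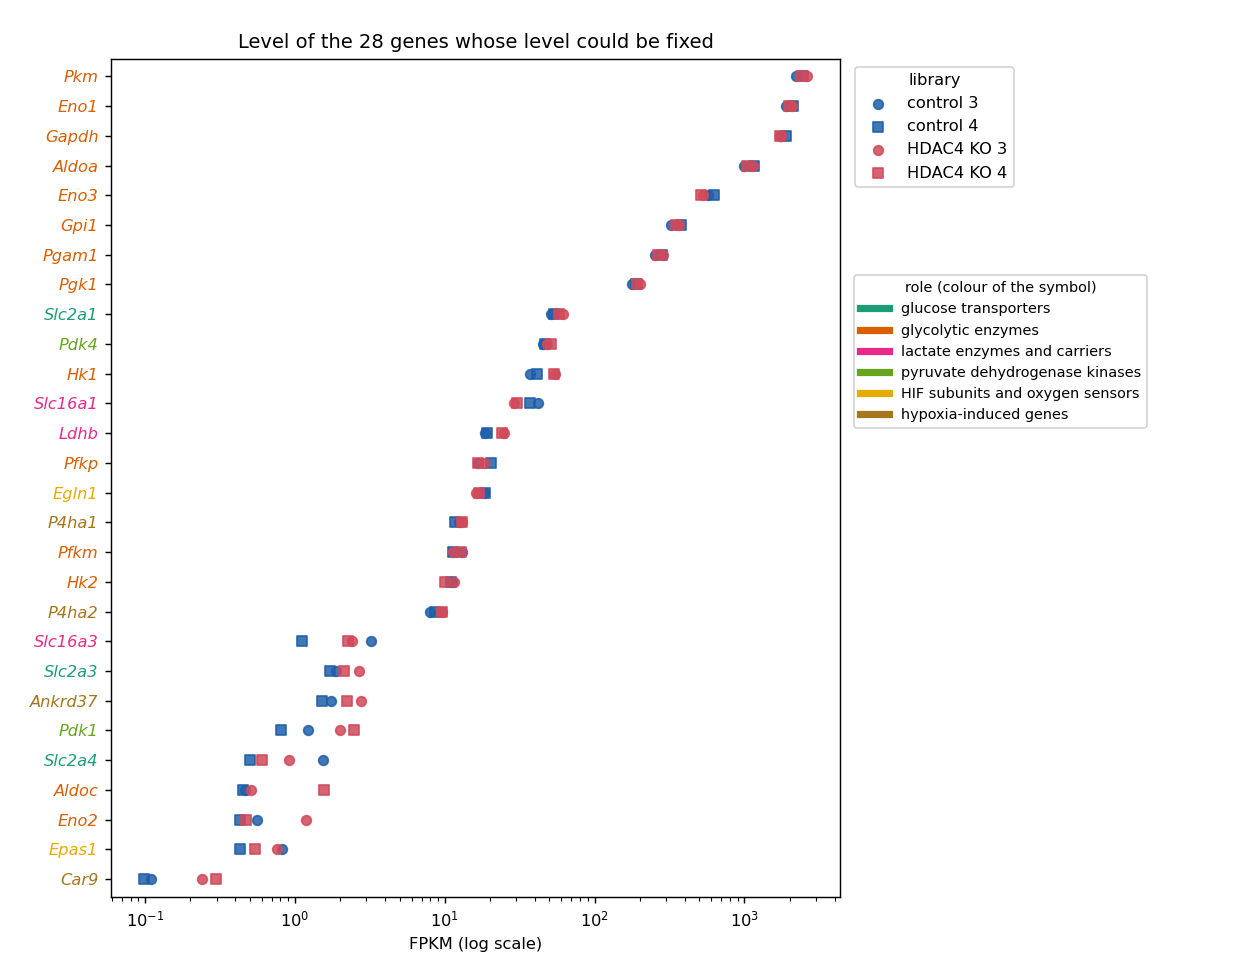
FPKM (log scale) of the 28 genes whose level could be fixed, with 1 point for each of the 2 control and 2 HDAC4 KO libraries, ordered by mean. The enzymes Pkm, Eno1, Gapdh and Aldoa stand at 991 FPKM or more in every library, and Car9 is lowest.

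No gene of the set passed the test in the fit of all gene types, in which 0 of 12133 genes (0%) had an adjusted p under 0.05. At an unadjusted p under 0.05, 5 of the 37 tested members were higher in the KO and 1 was lower, against 1323 (10.9%) and 448 (3.69%) of all genes. The groups did not overlap for 16 members higher in the KO and for 6 lower, against 30.9% and 17.7% of all genes. These were 43.2% of the tested members in the higher direction. The median difference over the 37 members was 0.04, the same as over all genes. In the fit of protein-coding genes alone, 91 of 10661 (0.854%) were called, 83 of them higher (0.779%) and 8 lower (0.075%), and Adm was the 1 member among them. The 5 members Slc2a4, Aldoc, Eno2, Epas1 and Car9 had a mean under 1 FPKM and were not tested.

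**Figure D2:**
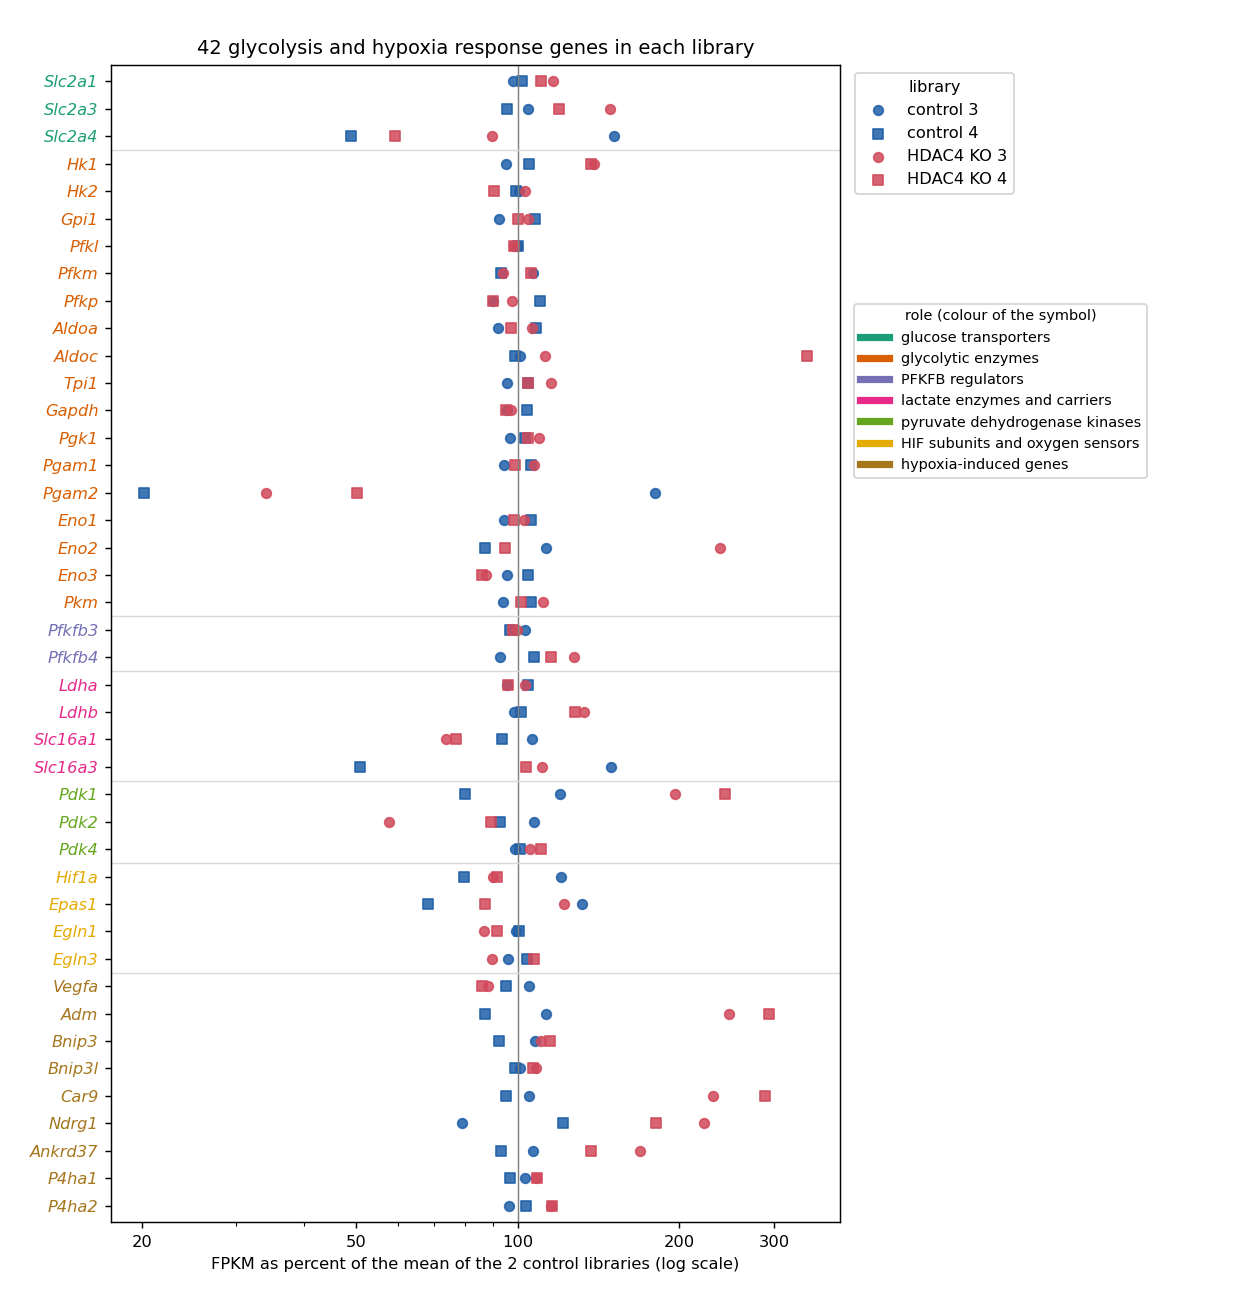
Each library's FPKM as a percent of the mean of the 2 control libraries (log scale) for the 42 genes, ordered by role. Most enzymes lie close to 100% in all 4 libraries, whereas Adm, Car9, Ndrg1 and Pdk1 lie above 180% in both KO libraries and Pgam2 and Slc2a4 are spread by control 3.

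The glycolytic enzymes were centred on no difference between the genotypes. Of the 15 tested, 8 lay above 0 and 7 below, with a median difference of 0.01 beside 0.04 over all genes, and 12 of them were within 0.2 of 0 on the log2 scale. Gapdh had 1727 and 1884 FPKM in the controls against 1755 and 1721 in the KO, a difference of -0.05 (SE 0.10). Aldoa differed by 0.03 (SE 0.12), Eno1 by 0.01 (SE 0.11) and Pkm by 0.09 (SE 0.12). For each of these 4 enzymes the 2 groups overlapped. Pgk1, phosphoglycerate kinase, had 178 and 190 FPKM in the controls against 201 and 192 in the KO. Its groups did not overlap, but the difference of 0.10 (SE 0.09) was close to its error.

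Hk1 was the enzyme with the largest difference among those tested whose groups did not overlap. It encodes hexokinase 1, which traps glucose in the cell as glucose 6-phosphate (10:62268855-62379908 on GRCm38). Hk1 had 37.2 and 41.1 FPKM in the controls against 54.4 and 53.6 in the KO, means of 39.1 ± 2.74 and 54.0 ± 0.525 (SD, n = 2). Both KO libraries were above both controls, by 1.38 times in the mean. The log2 difference was 0.46 (SE 0.10; limma adjusted p = 0.213). Hk2, the inducible hexokinase, had 11.2 and 10.99 FPKM in the controls against 11.5 and 10.03 in the KO, with overlapping groups. Hk1 accordingly made up 76.9% and 78.9% of the summed FPKM of both hexokinases in the controls and 82.6% and 84.2% in the KO. The KO shares lay above both control shares, a description with no test. The size of these shares rests on the level of Hk1, which was fixed only by the lower limit from counting error.

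The phosphofructokinases, which commit sugar to glycolysis, showed no such shift. Pfkl was at 99.8% and 100% of the control mean in the controls and at 98.4% in both KO libraries. Pfkp (platelet form) made up 56.2% and 64.4% of the summed Pfkp and Pfkm level in the controls and 61.4% and 56.6% in the KO, with overlapping groups. The level of Pfkm was also fixed only by the lower limit. Of the PFKFB regulators, which make and remove the phosphofructokinase activator fructose 2,6-bisphosphate, Pfkfb3 lay between 96.8% and 103% in all 4 libraries. Pfkfb4 was at 92.6% and 107% in the controls and 127% and 115% in the KO, a difference of 0.27 (SE 0.12; limma adjusted p = 0.392).

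Of the 4 muscle-enriched members, Pgam2 and Slc2a4 were clearly highest in the library that carried the most myofibre RNA. Pgam2, the muscle phosphoglycerate mutase, was at 180% and 20.2% of the control mean in the controls and at 34.0% and 50.2% in the KO. Control 3 was thus 8.90 times control 4, and the KO libraries fell between them. The difference was -0.56 (SE 0.89) with all libraries and 0.77 without control 3, so that its direction rested on that library. Slc2a4, the insulin-responsive transporter GLUT4, had 1.54 FPKM in control 3, 0.501 in control 4, 0.917 in KO 3 and 0.604 in KO 4. The fast-fibre light chain Mylpf had 1394 FPKM in control 3 and 117, 77.9 and 168 in the other libraries, and creatine kinase Ckm had 75.9 against 1.06, 1.28 and 3.24. The part of this RNA in the values of Pgam2 and Slc2a4 was not tested.

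Pfkm and Eno3, also enriched in muscle, were not raised in control 3 to that degree. Pfkm had 13.0 and 11.3 FPKM in the controls against 11.4 and 12.9 in the KO, so that control 3 was only just above KO 4. Eno3 had 575 and 629 FPKM in the controls against 527 and 516 in the KO, with both KO libraries below both controls and control 3 below control 4. Its difference was -0.21 (SE 0.10; limma adjusted p = 0.414). Eno3 made up 23.3% and 22.9% of the summed FPKM of the 3 enolases in the controls and 20.3% and 20.7% in the KO.

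**Figure D3:**
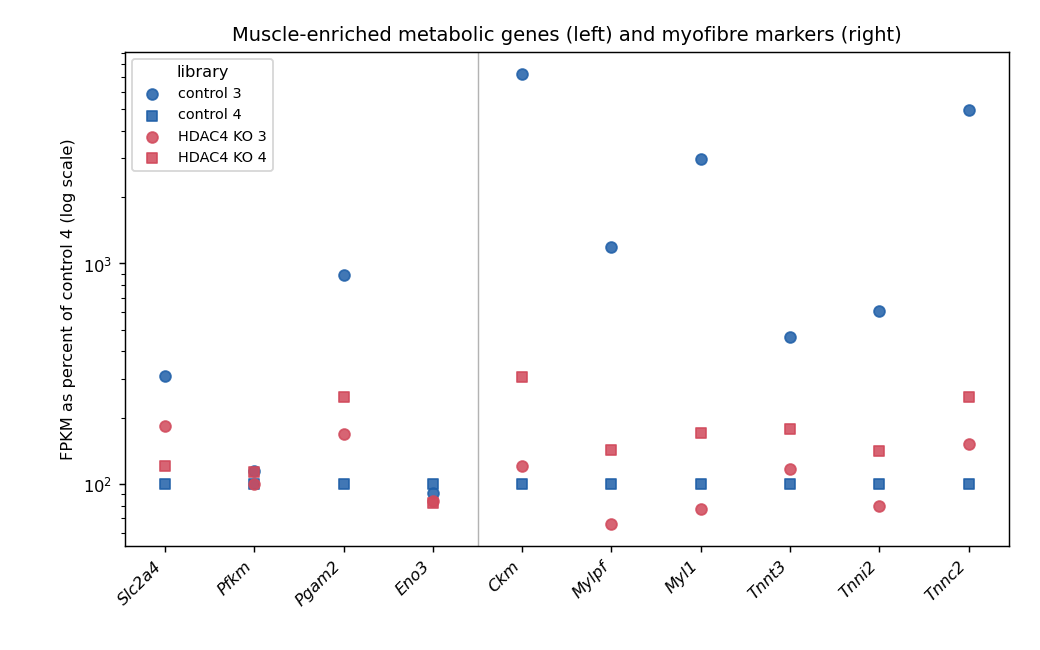
FPKM as a percent of control 4 (log scale) for the 4 muscle-enriched members (left) and 6 markers of mature muscle fibres (right), 1 point per library. Control 3 is the highest library for Pgam2, Slc2a4 and every marker shown, and by a small margin for Pfkm. Pfkm and Eno3 stay close to 100% in all libraries. The markers Actn3 and Ryr1, which were not highest in control 3, are not shown.

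Glucose entry and the handling of lactate and pyruvate gave differences in both directions. Slc2a1, the basal glucose transporter GLUT1, had 51.5 and 53.7 FPKM in the controls against 61.2 and 58.1 in the KO. Its groups did not overlap and the difference was 0.18 (SE 0.09; limma adjusted p = 0.454). Slc2a3, the high-affinity GLUT3, was far lower, at 1.87 and 1.71 FPKM in the controls against 2.66 and 2.14 in the KO.

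The lactate dehydrogenase subunits differed from each other. Ldha, the subunit that favours lactate production, was at 95.6% and 104% of the control mean in the controls and at 103% and 96.0% in the KO, a difference of -0.01 (SE 0.10). Ldhb, the subunit that favours the use of lactate, had 18.4 and 19.0 FPKM in the controls against 24.9 and 23.9 in the KO. Both KO libraries were higher, 1.30 times in the mean, with a difference of 0.37 (SE 0.10; limma adjusted p = 0.245).

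The monocarboxylate carriers move lactate across the membrane. Slc16a1 (MCT1; 3:104638668-104658462) had 41.98 and 36.9 FPKM in the controls against 29.1 and 30.3 in the KO, means of 39.4 ± 3.61 and 29.7 ± 0.877 (SD, n = 2). It was the only member lower in the KO at an unadjusted p under 0.05, with a difference of -0.40 (SE 0.11; limma adjusted p = 0.254). Slc16a3 (MCT4, the exporter of glycolytic cells) had 3.24 and 1.11 FPKM in the controls, and the KO values of 2.41 and 2.26 fell between them. Control 3 was 2.93 times control 4 for this gene.

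The pyruvate dehydrogenase kinases switch off the entry of pyruvate into the citric acid cycle. Pdk1, a HIF target, had 1.22 and 0.811 FPKM in the controls against 1.99 and 2.46 in the KO, 2.19 times in the mean. Its groups did not overlap, and the difference was 0.68 (SE 0.21; limma adjusted p = 0.282) at a level close to the filter. Pdk4, which is induced by fasting and fatty acids, was the highest kinase with a fixed level, at 45.4 and 46.5 FPKM in the controls against 48.4 and 50.9 in the KO. Pdk2 was at 107% and 92.7% of the control mean in the controls and at 57.6% and 89.3% in the KO. KO 3 was well below the rest while KO 4 nearly met control 4, and the difference was -0.34 (SE 0.21; limma adjusted p = 0.519).

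None of the 3 tested HIF subunits and oxygen sensors reached an unadjusted p under 0.05 in limma, against 14.6% of all genes. With 3 genes such a count says little. Hif1a, the subunit regulated by oxygen, was at 120% and 79.5% of the control mean in the controls and at 89.9% and 91.7% in the KO, between both controls. Epas1 (HIF-2alpha) had 0.825 and 0.427 FPKM in the controls against 0.763 and 0.544 in the KO. Egln1 (PHD2), the main prolyl hydroxylase, had 18.4 and 18.6 FPKM in the controls against 16.1 and 16.9 in the KO, a difference of -0.16 (SE 0.10; limma adjusted p = 0.511). Both KO libraries were below both controls, as for 17.7% of all genes. Egln3 (PHD3) lay between 89.8% and 107% in all libraries.

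Among the hypoxia-induced genes, 7 of the 8 tested were higher in both KO libraries than in both controls, and 1, Vegfa, was lower in both. The shares of all genes without overlap were 30.9% and 17.7%. Their median difference was 0.18, beside 0.01 for the enzymes and 0.04 for all genes. Only 2 of the 8, Adm and Ndrg1, had an unadjusted p under 0.05, against 10.9% of all genes in the higher direction.

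Adm encodes adrenomedullin, a secreted vasodilator peptide (7:110627661-110629820). It was at 113% and 87.2% of the control mean in the controls and at 247% and 294% in the KO, 2.71 times in the mean (KO 271% ± 33.4, control 100% ± 18.2; SD, n = 2). Each KO library was more than 2-fold above each control. Of the markers of other cells, 4 of 7 for smooth muscle and pericytes and 2 of 8 for endothelium were also higher in both KO libraries. The part of such cells in the value of Adm was not tested. The difference of Adm was 1.11 (SE 0.18; limma adjusted p = 0.174). With protein-coding genes alone the adjusted p was 0.0416, and over the 13 alternatives that kept the gene it ranged from 0.0416 to 0.676.

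Ndrg1, a stress-induced cytoplasmic protein that is also abundant in Schwann cells, lies at 15:66929321-66969640. It was at 78.7% and 121% of the control mean in the controls and at 222% and 181% in the KO. The KO mean was 2.02 times that of the controls, and the lower KO library was still above the higher control. The difference was 0.94 (SE 0.22; limma adjusted p = 0.235). The Schwann cell factor Sox10 had 1.23 and 0.932 FPKM in the controls against 4.29 and 3.08 in the KO. All 5 tested glial markers were higher in both KO libraries, and their part in the value of Ndrg1 was not tested.

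Ankrd37, a small ankyrin repeat protein, had 1.74 and 1.52 FPKM in the controls against 2.75 and 2.23 in the KO, a difference of 0.41 (SE 0.18; limma adjusted p = 0.398). Car9, the cell surface carbonic anhydrase, had 0.109 and 0.0988 FPKM in the controls against 0.240 and 0.299 in the KO. The KO values were above the controls, and the gene was under the filter of the test; with no filter on low values its difference was 0.20 (limma adjusted p = 0.349). The mitophagy receptors differed less. Bnip3 was at 108% and 92.4% of the control mean in the controls and 110% and 115% in the KO, and Bnip3l at 101% and 98.9% against 108% and 107%. The collagen prolyl hydroxylases were also only slightly apart. P4ha1 had 12.4 and 11.7 FPKM in the controls against 13.0 and 13.1 in the KO, and P4ha2 had 7.95 and 8.58 against 9.53 and 9.57. Vegfa, the main angiogenic growth factor, was at 105% and 95% in the controls and at 88.0% and 85.8% in the KO, a difference of -0.20 (SE 0.10; limma adjusted p = 0.446). The 4 hypoxia-induced genes whose KO mean was over 1.5 times that of the controls were therefore Adm, Car9, Ndrg1 and Ankrd37.

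**Figure D4:**
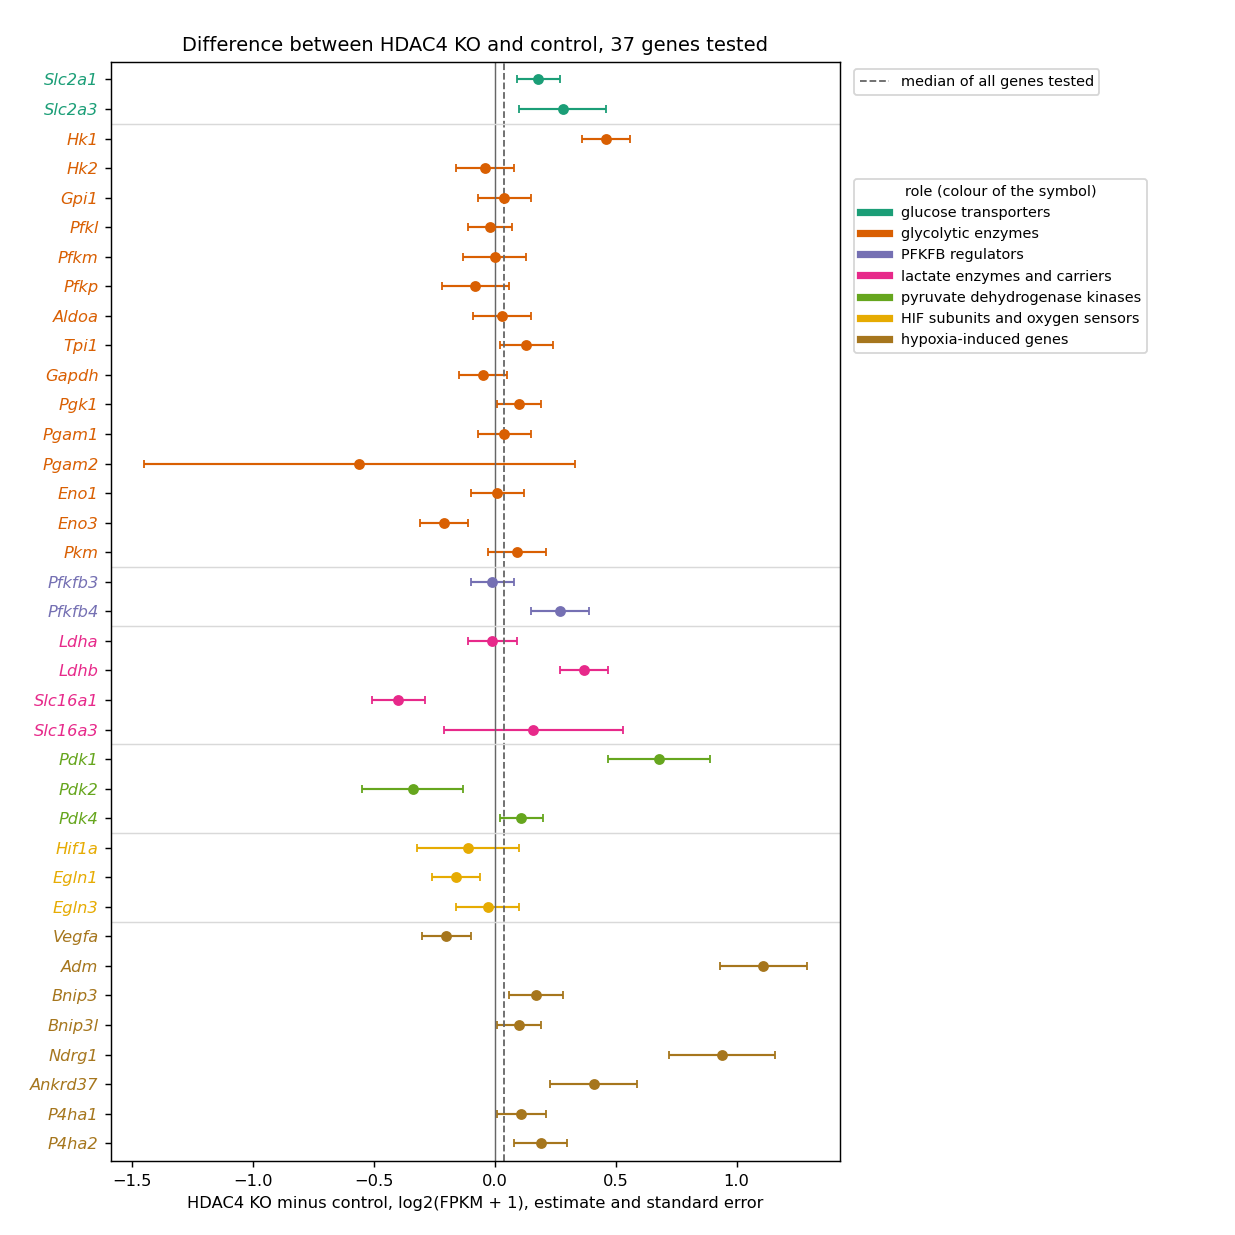
Difference between HDAC4 KO and control on the log2(FPKM + 1) scale with its standard error (limma, 2 libraries per group) for the 37 genes tested, ordered by role, with the median of all genes as a dashed line. The enzymes cluster around 0 except for Hk1, Eno3 and the widely spread Pgam2, and Adm (1.11) and Ndrg1 (0.94) lie farthest to the right.

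ACGTG, a form of the core bound by HIF, was counted on either strand in promoter windows. Other forms of the core were not counted. Windows ran from 250 bases before to 50 bases after annotated starts (RefSeq, GRCm38.p6). They covered 37 of the 42 genes, and Ndrg1 was not among these. Of their 52 windows 27 (51.9%) held ACGTG, against 19.6% of all 32851 windows, and many of the genes were put in the set as known HIF targets. By role, 6 of 8 windows of hypoxia-induced genes and 11 of 27 windows of glycolytic enzymes held it. The palindrome CACGTG, which contains ACGTG on both strands and is also read by other basic helix-loop-helix factors, was in 7 of the 52 windows (13.5%) and in 7.15% of all. The next 4 windows set the motif beside the expression values, with ACGTG and its reverse complement CACGT in capitals. They were picked with those values known and do not stand for all 52 windows. Adm, the member farthest above the controls, had no match to these letters in its window (7:110627407-110627706, plus strand), where other forms of the core were not sought. Ankrd37 had 2 (8:45999801-46000100, minus strand). Slc16a1, which was lower in the KO, had 3, of which a pair overlapped in CACGTG (3:104638414-104638713, plus strand). Ldha, which did not differ beyond its error, had 5, of which 2 pairs overlapped in CACGTG (7:46845554-46845853, plus strand).
Adm: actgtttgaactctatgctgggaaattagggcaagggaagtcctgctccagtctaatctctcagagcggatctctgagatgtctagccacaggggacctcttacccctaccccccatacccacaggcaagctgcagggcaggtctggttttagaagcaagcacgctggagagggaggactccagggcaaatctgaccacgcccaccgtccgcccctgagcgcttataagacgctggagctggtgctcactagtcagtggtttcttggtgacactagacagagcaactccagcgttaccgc
Ankrd37: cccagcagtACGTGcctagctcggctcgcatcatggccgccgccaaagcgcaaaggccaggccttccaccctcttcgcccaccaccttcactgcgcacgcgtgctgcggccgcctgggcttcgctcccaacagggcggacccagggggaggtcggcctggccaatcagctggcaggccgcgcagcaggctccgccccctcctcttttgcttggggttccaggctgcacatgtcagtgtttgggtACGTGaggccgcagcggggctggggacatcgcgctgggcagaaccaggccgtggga
Slc16a1: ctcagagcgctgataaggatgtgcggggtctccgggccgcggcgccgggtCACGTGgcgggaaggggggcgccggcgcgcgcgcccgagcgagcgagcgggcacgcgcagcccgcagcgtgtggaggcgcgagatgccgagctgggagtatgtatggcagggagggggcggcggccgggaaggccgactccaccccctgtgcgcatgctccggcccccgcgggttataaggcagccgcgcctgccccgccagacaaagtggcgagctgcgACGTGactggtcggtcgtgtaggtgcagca
Ldha: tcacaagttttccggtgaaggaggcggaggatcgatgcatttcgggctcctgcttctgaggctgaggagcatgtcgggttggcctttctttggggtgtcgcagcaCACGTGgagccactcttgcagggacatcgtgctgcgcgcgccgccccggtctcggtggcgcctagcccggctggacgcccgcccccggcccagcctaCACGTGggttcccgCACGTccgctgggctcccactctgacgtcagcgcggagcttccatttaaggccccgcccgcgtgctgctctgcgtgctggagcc
A match marks only these letters and not a bound site, and a window without one says nothing of HIF at that gene.

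Genes of the same pathways outside the set gave the background of these values. Of 31 tested genes of neighbouring carbohydrate pathways, 2 (6.45%) were higher and 3 lower at an unadjusted p under 0.05, against 10.9% and 3.69% of all genes, with a median of 0.06. Taldo1, transaldolase of the pentose phosphate pathway, had 161 and 169 FPKM in the controls against 257 and 200.1 in the KO (difference 0.46, SE 0.15). Pgm2, a phosphoglucomutase, had 23.6 and 24.8 FPKM against 32.1 and 28.1 (0.30, SE 0.11). Both were higher in both KO libraries. Pck2, the mitochondrial phosphoenolpyruvate carboxykinase, had 26.3 and 26.2 FPKM in the controls against 18.6 and 17.5 in the KO (-0.52, SE 0.10; limma adjusted p = 0.196). Gpd1l, a glycerol 3-phosphate dehydrogenase-like enzyme, was at 106% and 93.9% of the control mean against 68.4% and 74.9% (-0.47, SE 0.11).

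Of 30 tested further HIF pathway genes and targets, 10 (33.3%) were higher and 0 lower at an unadjusted p under 0.05, against 10.9% and 3.69% of all genes, with a median of 0.22. Bhlhe40, a transcriptional repressor of the clock, had 6.21 and 6.44 FPKM against 10.51 and 11.5 (0.71, SE 0.12; limma adjusted p = 0.177). The 2 genes nearest to the test in the lower direction were Ero1l, an oxidase of the endoplasmic reticulum, at 114% and 85.9% of the control mean against 77.0% and 76.8%, and the transferrin receptor Tfrc at 118% and 82.1% against 80.4% and 69.8%. Heme oxygenase Hmox1 was among those that passed with protein-coding genes alone (limma adjusted p = 0.0458; range over its 14 alternatives 0.0458 to 0.742). Hmox1 was named after its values were seen. Several genes of this list are also induced by other stimuli and expressed by smooth muscle, fibroblasts or endothelium. The part of the smooth muscle, pericyte, fibro-adipogenic progenitor and endothelial markers in these values was not tested.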

How the data were processed

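PolyA RNA of 2 control and 2 HDAC4 KO satellite cell libraries was sequenced, and groups were taken from the sample titles. Per the submitters' processing notes and the study's methods, the authors used CASAVA 1.8.2, ERNE and cutadapt for trimming, TopHat on GRCm38, and Cufflinks and Cuffdiff for estimates. The deposited FPKM tables hold an estimate and its confidence bounds for each gene, normalized by the authors to transcript length and library size. The study's methods give the mean and range of reads per sample; the deposited tables hold FPKM without counts, so no read total of a library was used here and no counting interval is given. The authors' comparison table was used only for its 2 pooled FPKM columns; its fold changes, test statistics, p-values and q-values were not used.

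Estimates with 3 or more decimals had lost their point (11652 to 11900 of 43496 entries per library). Points were put back so that the estimate lay midway between its bounds and each group's libraries gave the authors' pooled FPKM (log2 tolerance 0.02). Where several readings remained, the ratio between groups was set by the width of the bounds and by how often such ratios occur (probability at least 0.99), as for 31 of the 42 genes. With known ratios hidden, this rule gave 1681 of 1692 (99.3%) right, 0 wrong and 11 unsettled, and 48 of 52 right above 2-fold. These were the genes on which it had been set. A power of 10 was dropped where it put a level under the lowest that counting error allowed among genes with known level. That rule alone fixed the level of 1689 genes kept, 3 of the 42 among them. It was not checked with known levels hidden. A common power of 10 could not be settled for 6622 of the 25342 genes kept, 14 of the 42 among them. The most likely level was used there, and such a choice was right for 310 of 460 genes (67.4%) with known level.

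Genes whose mean reached 1 FPKM were tested with limma 3.58.1 (R 4.3.3, trend) on log2(FPKM + 1), HDAC4 KO against control. Each SE and p thus draws on genes of like level as well as on the gene's own 4 values. The restoration and the fit were tested on simulated data. The smallest p of an exact permutation test with 2 libraries a side is 0.333, and such a test was left out. The alternatives were another pseudocount, other filters, other scalings, protein-coding genes alone, replicate blocks, other readings of unsettled levels and leaving out each library. The readings of unsettled levels and the crossed block were chosen after seeing the data. Genes were given in every library where the groups did not overlap with a difference of 0.3 or more, where the unadjusted p was under 0.05, for the muscle-enriched genes, and for the highest gene of each role; for neighbouring pathways, the 2 genes with the smallest p in each direction were named. Other genes were added for context after their values were seen. A gene that this rule names is not reported here. The genes, lists and tests were chosen with earlier results of these data known. Positions are those of the files (GRCm38).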

Additional observations from a re-analysis of the deposited data

How the results depend on the processing

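No gene of the set had an adjusted p under 0.05 in the limma fit or in 13 of its 14 alternatives; with protein-coding genes alone there was 1, Adm. Over all genes the count of 0 (1771 at an unadjusted p under 0.05) became 1 with a filter at a mean of 5 FPKM, 91 with protein-coding genes alone, 1 with a replicate block and 34 (4 higher) with the next higher reading of unsettled levels; it stayed 0 without each library in turn. The libraries numbered 3 deviated with a correlation of -0.11 between the groups. With the numbers crossed in the replicate block the count was 0. The shared numbers were not taken as pairs. The median of the hypoxia-induced genes (0.18) became 0.14 with the filter at 5 FPKM and 0.13 with median-ratio scaling or quantile normalization, which also moved the median of all genes from 0.04 to -0.01, and ranged from 0.16 to 0.21 without each library. The median of the enzymes (0.01) was -0.05 with either of these scalings and ranged from -0.03 to 0.09 without each library. Pgam2 ranged from -1.88 to 0.77 without each library, and changed sign without control 3. Of 220 values of 16 named genes, 218 were counted as unchanged, 1 as reversed (Pgam2) and 1 as stronger (Adm). Values counted as unchanged could still move in size. The difference of Pdk1 ran from 0.54 to 1.08, of Pdk2 from -0.56 to -0.12 and of Slc16a1 from -0.49 to -0.30. Pfkm, with a difference of 0.00, was counted as unchanged although its values ran from -0.10 to 0.09. The causes were not tested. The 2 libraries per group limit what small differences can show.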
